A study of Mus musculus with 15 samples.

Results

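The 6 genes described here belong to the gp130 cytokine system of mouse macrophages: the ligand genes Il6, Osm, Lif and Clcf1, and the receptor genes Il6ra and Il6st. They were taken by gene symbol from 20145 genes named on the array, and all 6 were among the 14228 genes that passed a filter on dim probes and were tested. Each is measured by 1 probe, which for Il6 was printed in 2 spots. RNA came from bone marrow-derived macrophages, which had been cultured with the growth factor M-CSF, and was hybridised to 15 single-colour Agilent arrays, 1 per culture well. Wild type cells were left untreated (4 arrays) or received lipopolysaccharide (LPS), a component of the outer membrane of Gram-negative bacteria, at 100 ng/ml for 4 h (4 arrays). Knockout cells carried Junb-fl/fl with Lyz2-Cre+/+ and gave 4 untreated arrays and 3 LPS arrays, numbered 2, 3 and 4. Wild type cells were C57BL/6, with no Cre or floxed allele named, and knockout cells had the same background. Ages are not given in the sources used here. Junb encodes a subunit of the transcription factor AP-1, Lyz2-Cre is active in myeloid cells, and the study asked what Junb does in macrophage activation.

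Cytokines of this family signal through gp130, the shared receptor chain encoded by Il6st, together with further receptor chains that depend on the ligand. Examples are the IL-6 receptor encoded by Il6ra and the oncostatin M receptor encoded by Osmr. Binding activates JAK kinases and the transcription factor STAT3, whose targets include the feedback inhibitor SOCS3. Macrophages stimulated with LPS are a major source of IL-6 and also make oncostatin M, while gp130 itself is found on nearly all cells.

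Levels are given as relative signal, the background-subtracted signal divided by the 75th percentile of the signals on the same array. Fold changes are on the log2 scale with their standard error (SE) from limma, a linear model that shares information on the spread between genes. Tests are two-sided, p-values are Benjamini-Hochberg adjusted over all genes tested, and a gene passed at an adjusted p under 0.05. The replicates are described as separate wells, with no animals named, so each p-value reflects how far wells differ, which may be technical. In RNA from bulk cultures, fewer cells of a type and less RNA per cell cannot be told apart.

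The 75th percentile of signals ranged from 476 to 1481 over the arrays, 51.0% to 63.2% of spots were well above background, and correlations across genes between arrays of the same group ranged from 0.960 to 0.997. Signal from the Junb probe rose well above background in the 8 wild type samples (processed signals 1291 to 9574) and in 0 of the 7 knockout samples (-0.395 to 4.15). The genotypes were hybridised on separate slides, so slide and genotype cannot be told apart. On each slide the untreated arrays occupied 1 row and the LPS arrays the other, so row and treatment cannot be told apart either. Knockout cells also had low Lyz2 signal (869 to 3793, against 345889 to 448164 in wild type cells). Xist signal was detected in the 8 wild type samples and in 0 of the knockout samples, whereas Ddx3y and Eif2s3y were above background on all knockout and 0 wild type arrays. The probes of 2 other Y-linked genes did not separate the genotypes by detection: Kdm5d was above background on 4 untreated and 1 LPS wild type array and Uty on 3 and 3, and both on every knockout array. Sex, Cre, Lyz2 and Junb therefore cannot be told apart in any comparison of the genotypes. All 7 named macrophage markers, Lyz2 among them, were above background on every array. Without LPS their summed relative signal was 546 to 1275 for knockout and 1258 to 1446 for wild type arrays. Csf1r was as low as 3.52 in untreated knockout cells (305 to 397 in wild type), while its other probes differed there by -0.19 and 0.01. The dendritic cell marker Siglech was also bright on every array, from 101 in untreated knockout to 324 in wild type LPS cells. With scaling to the 75th percentile, 58.0% of the genes that passed in the wild type LPS response were higher, against 41.7% with quantile normalisation, 41.5% with scaling by the median and 43.0% in the deposited value table. The median response of all genes then moved from 0.14 to -0.13, -0.14 and -0.15.

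Across the 6 genes, LPS raised 3 (Il6, Osm and Lif) and lowered 1 (Il6ra) in wild type cells, and Clcf1 and Il6st did not pass. Over all genes tested, 59.9% passed in this comparison, 34.7% higher and 25.1% lower, and the median log2 fold change was 1.35 over the 6 genes and 0.14 over all genes. In knockout cells LPS raised 2 (Il6 and Osm), lowered 1 (Il6ra) and left 3 that did not pass, where 58.9% of all genes passed, 31% higher and 27.9% lower. The median of the 6 genes was 0.34 there, against 0.16 over all genes. Tested directly, the size of the LPS response passed as different for 1 of the 6, Osm. Over all genes 10.4% passed here, 2.51% with a larger and 7.91% with a smaller response in knockout cells. Both LPS responses enter this difference, so the values of all 3 comparisons share arrays. Without LPS, 0 of the 6 genes passed between knockout and wild type cells by limma, and 2 (Clcf1 and Lif) had an unadjusted p under 0.05, where 18.4% of all genes passed, 13.7% higher and 4.68% lower. With LPS, 3 of the 6 (Osm, Lif and Il6st) were lower in knockout cells and 0 were higher, where 29.8% of all genes passed, 16.2% lower and 13.6% higher.

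**Figure D1:**
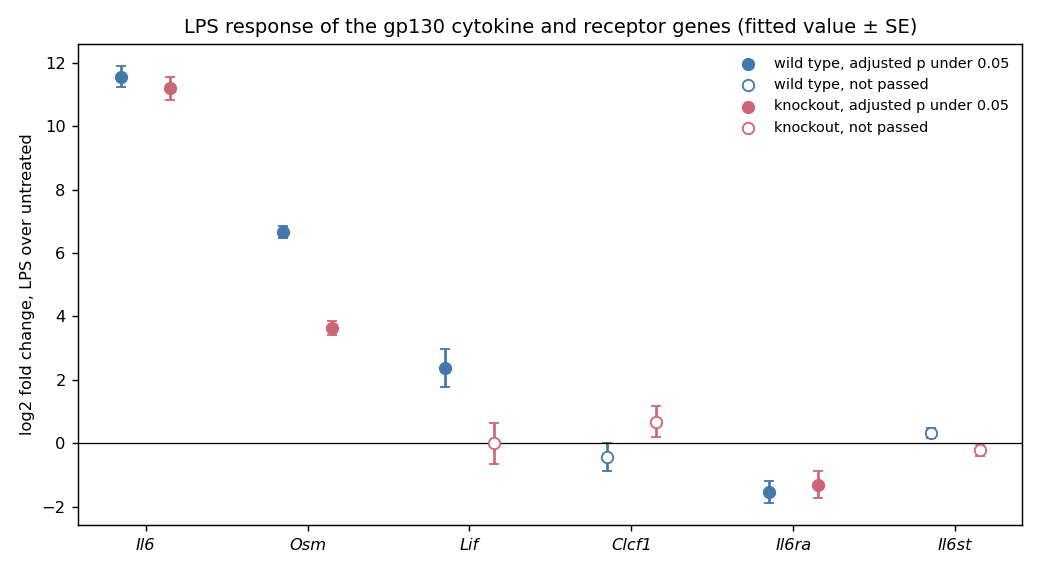
Fitted log2 fold change of LPS over untreated cells (y axis) for each of the 6 genes (x axis), with the SE as bars, in wild type cells (blue) and knockout cells (red). Filled circles passed at an adjusted p under 0.05. Il6 stands at 11.56 and 11.19, Osm at 6.67 and 3.64, and Lif at 2.37 in wild type cells and at 0 in knockout cells.

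Il6 encodes interleukin-6, an inflammatory cytokine that acts on lymphocytes, liver and many other tissues. In untreated wild type cells its relative signal was 0.121, 0.197, 0.112 and 0.154, and in untreated knockout cells 0.158, 0.462, 0.135 and 0.180. With LPS it was 415, 415, 319 and 614 in wild type cells and 430, 624 and 414 in knockout cells. Every LPS array lay far above every untreated array, and the genotypes overlapped in both states. Untreated knockout replicate 2 was the highest of the untreated arrays.

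The log2 fold change of Il6 with LPS was 11.56 ± 0.34 in wild type cells (3016-fold, limma adjusted p = 2.9e-12) and 11.19 ± 0.37 in knockout cells (2341-fold, adjusted p = 1.2e-11). The responses differed by -0.37 ± 0.50 (knockout minus wild type, adjusted p = 0.684), with a 95% interval from -1.44 to 0.71. In the deposited value table, where the spread is wider, this difference was 1.05 ± 1.42 (adjusted p = 0.708), of the opposite sign. Knockout minus wild type was 0.53 ± 0.34 without LPS (adjusted p = 0.310) and 0.16 ± 0.37 with LPS (adjusted p = 0.784), the latter 1.42 ± 1.04 in the deposited value table (adjusted p = 0.365). With LPS the Il6 probe was among the brightest on each array, at worst 55th of 55681 probes. Its processed signal varied only 1.15-fold over the 7 LPS arrays (292177 to 335742), while the 75th percentile that it is divided by varied 2.21-fold. None of the spots was marked as saturated. Whether the probe still responds in proportion to its RNA at this brightness was not tested, so the values with LPS hold for the signal as measured.

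The sequence before the start of Il6 is shown because AP-1, to which JUNB belongs, and NF-kB are both known to act at this promoter. The RefSeq promoter table (GRCm38.p6) holds 4 of the 6 genes (Il6, Lif, Il6ra and Il6st), as windows from 250 bases before to 50 bases after the start. Printed here are the 250 bases before the start of Il6, chr5:30012864-30013113, and of Lif, chr11:4257318-4257567, both on the plus strand and written 5′ to 3′. Capitals mark matches, on either strand, to motifs of AP-1 (TGANTCA), CRE (TGACGTCA), NF-kB (a 10-base motif), STAT (TTCNNNGAA) and C/EBP (TTGCNNAA).
Il6: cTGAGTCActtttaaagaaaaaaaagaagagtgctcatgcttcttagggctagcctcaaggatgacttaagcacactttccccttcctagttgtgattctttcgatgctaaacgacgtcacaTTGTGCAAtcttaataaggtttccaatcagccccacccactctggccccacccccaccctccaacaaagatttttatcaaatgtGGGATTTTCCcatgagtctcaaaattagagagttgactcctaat
Lif: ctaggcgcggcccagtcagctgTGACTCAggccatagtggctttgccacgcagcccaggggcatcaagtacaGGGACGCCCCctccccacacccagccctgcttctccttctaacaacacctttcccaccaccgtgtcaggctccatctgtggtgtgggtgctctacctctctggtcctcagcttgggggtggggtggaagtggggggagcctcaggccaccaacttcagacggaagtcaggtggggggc
In the Il6 window the capitals are, in order, 1 AP-1 match (TGAGTCA) beginning 249 bases before the start, 1 C/EBP match (TTGTGCAA) beginning 128 bases before it, and 1 NF-kB match (GGGATTTTCC) beginning 44 bases before it. In the Lif window they are 1 AP-1 match (TGACTCA) beginning 228 bases before the start and 1 NF-kB match (GGGACGCCCC) beginning 178 bases before it. The matches do not overlap. The windows of Il6ra and Il6st held no match to the 5 motifs. Of 32851 promoter windows of the same length, 7.81% held the AP-1 motif, 8.46% the NF-kB motif, 10.8% the C/EBP motif, 8.30% the STAT motif and 1.79% the CRE motif. A match is a stretch of letters and not evidence of binding. Both windows hold an AP-1 and an NF-kB match. Of these genes, Lif was lower in knockout cells with LPS and Il6 did not pass.

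Osm encodes oncostatin M, a relative of LIF made by activated macrophages and T cells. Its relative signal in untreated cells was 0.193, 0.160, 0.156 and 0.195 in wild type and 0.150, 0.256, 0.201 and 0.197 in knockout. With LPS it reached 15.5, 23.5, 15.7 and 17.6 in wild type cells and 2.43, 1.91 and 3.23 in knockout cells. The untreated groups overlapped. With LPS, every knockout array lay below every wild type array and above every untreated array.

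LPS raised Osm by 6.67 ± 0.20 in wild type cells (102-fold, limma adjusted p = 2.9e-12), the 35th highest rise of all genes tested, and by 3.64 ± 0.21 in knockout cells (12.5-fold, adjusted p = 3.9e-09). The knockout response was thus smaller by -3.02 ± 0.29 on the log2 scale (95% interval -3.65 to -2.40, adjusted p = 2.2e-05). Knockout minus wild type was 0.17 ± 0.20 without LPS (adjusted p = 0.583) and -2.85 ± 0.21 with LPS (7.21-fold lower, adjusted p = 5.2e-07). This difference passed under every alternative processing that was run, from -3.22 to -2.57 for the response and from -3.05 to -2.52 for the level with LPS.

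Among markers of other cells, the summed relative signal of 8 named neutrophil genes also differed by genotype with LPS, at 49.1 to 65.5 for wild type against 18.6 to 21.2 for knockout arrays. Without LPS it was 7.06 to 12.1 and 6.35 to 7.02. Most of it was S100a8, which macrophages also express (42.3 to 56.7 with LPS for wild type, 13.6 to 16.0 for knockout). The neutrophil genes Mpo and Cxcr2 were above background on 0 of the 15 arrays and Ngp on 1. S100a9 was above background on all 4 untreated and all 4 LPS wild type arrays (0.590 to 1.08 with LPS) and on 0 knockout arrays. Camp with LPS was 5.45 to 7.73 for wild type and 4.11 to 5.08 for knockout arrays. Ltf went the other way with LPS, at 0.0785 to 0.139 for wild type and 0.143 to 0.202 for knockout arrays. Elane overlapped, at 0.428 to 0.538 and 0.482 to 0.512. On each array 4 or 5 of the 8 genes were above background. The part of such cells in the Osm difference was not tested.

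Lif encodes leukemia inhibitory factor, named for its effect on leukaemic cells and known for keeping mouse embryonic stem cells undifferentiated. Untreated wild type cells gave relative signals of 0.746, 0.180, 0.300 and 0.0801, and with LPS 0.850, 1.40, 1.20 and 1.63. Untreated knockout cells gave 0.0635, 0.0463, 0.176 and 0.111, and with LPS 0.0598, 0.155 and 0.0710. The probe exceeded background clearly in the 8 wild type samples, but on only 1 of 4 untreated and 1 of 3 LPS knockout arrays, so the fold changes of Lif rest on knockout values near background (the floor set for all probes is 0.0442). Every wild type LPS array lay above every other array, while the untreated genotypes overlapped.

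LPS raised Lif by 2.37 ± 0.59 in wild type cells (5.17-fold, limma adjusted p = 0.00310), and its response in knockout cells was 0.00 ± 0.64 (adjusted p = 1). With LPS, Lif was lower in knockout cells by -3.83 ± 0.64 (14.2-fold, adjusted p = 0.000568). The difference of the responses was smaller than this and did not pass, at -2.37 ± 0.87 (95% interval -4.24 to -0.50, adjusted p = 0.103). Without LPS, knockout minus wild type was -1.45 ± 0.59 (adjusted p = 0.105). Untreated wild type replicate 1 was the highest of the untreated arrays, and without it the difference of the responses was -2.92 (adjusted p = 0.0235). Leaving out the same array shrank the difference without LPS to -0.91, which did not pass. Without untreated wild type replicate 4, the lowest of its group, the difference without LPS was -1.98 (adjusted p = 0.0202). Leaving out that array shrank the difference of the responses to -1.85, which did not pass.

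Markers of stromal cells moved in both directions beside Lif. The summed relative signal of 8 named stromal genes was 2.60 to 4.95 and 6.89 to 10.73 in wild type cells without and with LPS, and 3.26 to 4.65 and 18.2 to 20.6 in knockout cells. Between 5 and 8 of the 8 were above background on each array. Within the list, Dcn was lower in knockout cells with LPS (-2.20 on the log2 scale, adjusted p = 0.00719), and Pdgfrb, which took the larger share of the sum there (12.3 to 14.9), was higher (1.76, adjusted p = 9.4e-06). Lum was above background on 4 wild type LPS arrays and on 0 others, and Pdgfra on 0 to 1 array of each group. Col3a1 with LPS was 0.668 to 0.990 for wild type and lay higher for knockout arrays, at 1.29 to 2.75. The genotypes overlapped with LPS in Col1a1 (1.31 to 3.38 for wild type, 2.07 to 3.98 for knockout) and Col1a2 (0.547 to 1.44 and 0.584 to 0.807). They also overlapped in Thy1 (0.0825 to 0.205 and 0.163 to 0.520). The part of such cells in the Lif result was not tested.

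Osm and Lif are next to each other in the order of protein-coding genes on their chromosome. Their other neighbours on either side are Castor1, which fell with LPS in both genotypes (-1.05 and -1.74) with a difference of -0.69 that did not pass (adjusted p = 0.134), and Hormad2, which did not pass in either (0.14 and 0.16). One gene further out, Tbc1d10a beyond Castor1 did not pass in the difference (-0.32, adjusted p = 0.333) and was lower in knockout cells with LPS (-0.73, adjusted p = 0.00198). Mtmr3 beyond Hormad2 had a smaller response in knockout cells (-0.71, adjusted p = 0.0276) and a higher untreated level there (0.67, adjusted p = 0.00215). These 4 genes were chosen by position alone.

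Clcf1 encodes cardiotrophin-like cytokine factor 1, which signals through gp130, the LIF receptor and the CNTF receptor. Untreated wild type cells gave 1.97, 0.699, 0.845 and 0.379, and untreated knockout cells 0.261, 0.255, 0.899 and 0.301. With LPS the values were 0.565, 0.573, 0.605 and 0.685 in wild type and 0.519, 0.662 and 0.593 in knockout cells. The spread between untreated wells was wide, and with LPS all 7 arrays lay close together, the genotypes overlapping.

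None of the comparisons of Clcf1 passed with all arrays at equal weight. Its response was -0.43 ± 0.45 in wild type cells (limma adjusted p = 0.438) and 0.68 ± 0.48 in knockout cells (adjusted p = 0.241), and knockout minus wild type was -0.04 ± 0.48 with LPS (adjusted p = 0.974). Without LPS it was -1.15 ± 0.45 (adjusted p = 0.0920). Untreated knockout replicate 3 stood above the other 3 arrays of its group. Without it this difference was -1.58 (adjusted p = 0.0143) and the knockout response 1.11 (adjusted p = 0.0317). Without untreated wild type replicate 4 the difference without LPS was -1.52 (adjusted p = 0.0231). Without untreated wild type replicate 1, the highest of its group, it shrank to -0.73 and did not pass.

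**Figure D2:**
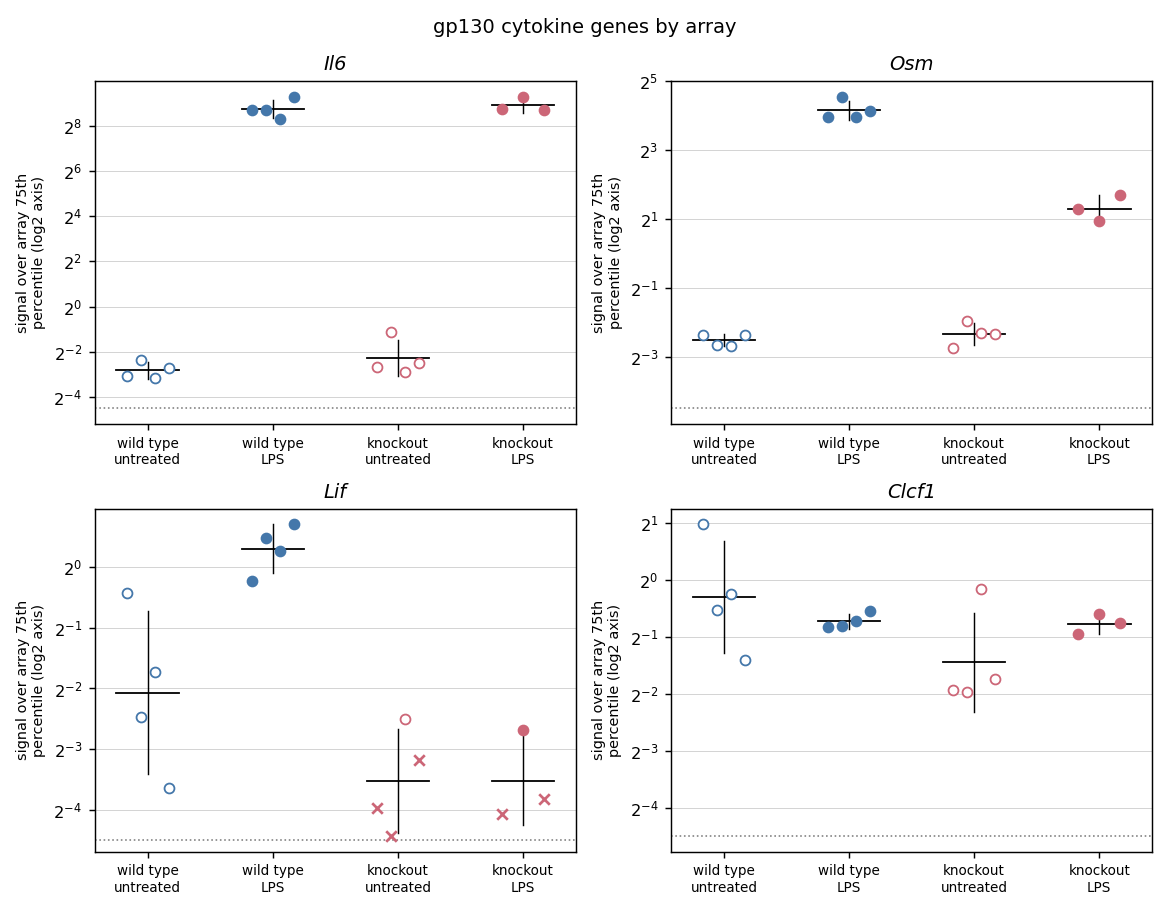
Relative signal of Il6, Osm, Lif and Clcf1 (y axis, log2 axis) on each array by group (x axis). Each circle is 1 array (open untreated, filled LPS), crosses are arrays on which the probe was not well above background, horizontal lines are means and vertical lines SDs of log2 values, and the dotted line is the floor. Osm with LPS reads 15.5 to 23.5 for wild type arrays, above the 1.91 to 3.23 of the knockout, and the Il6 groups overlap.

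Il6ra encodes the ligand-binding chain of the IL-6 receptor, which in macrophages makes the cell itself able to respond to IL-6. Its relative signal in untreated wild type cells was 17.6, 21.3, 22.4 and 23.6, and with LPS 9.74, 4.91, 8.50 and 7.09. Untreated knockout cells gave 18.8, 6.00, 21.4 and 19.9, and with LPS 5.36 and 6.71, since the spot of replicate 2 was marked as an outlier and set to missing. In wild type cells the treated and untreated groups did not overlap. In knockout cells they overlapped through untreated replicate 2 alone, which lay between the LPS arrays while the other 3 lay far above them.

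Il6ra thus fell with LPS by 1.53 ± 0.35 on the log2 scale in wild type cells (2.88-fold lower, limma adjusted p = 0.00219) and by 1.30 ± 0.43 in knockout cells (2.47-fold lower, adjusted p = 0.0200, with 2 LPS arrays). The responses differed by 0.22 ± 0.56 (95% interval -0.99 to 1.44, adjusted p = 0.834). Knockout minus wild type was -0.51 ± 0.35 without LPS (adjusted p = 0.349) and -0.29 ± 0.43 with LPS (adjusted p = 0.669). The knockout call was lost without LPS replicate 3 (adjusted p = 0.122) or 4 (0.0503), either of which leaves 1 array, assumed to vary like the other groups. It was also lost when only the groups compared were fitted (0.0937).

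Il6st encodes gp130. Its relative signal was 1.82, 1.13, 1.17 and 1.59 in untreated wild type cells and 1.61, 2.09, 1.72 and 1.64 with LPS. In knockout cells it was 1.14, 1.56, 1.44 and 1.25 untreated and 1.16, 0.965 and 1.36 with LPS. All 15 values lay within a narrow range. Of the groups that differ in genotype alone or treatment alone, only the wild type and knockout LPS groups were separate. There every knockout array lay below every wild type array.

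LPS changed Il6st by 0.33 ± 0.17 in wild type cells (limma adjusted p = 0.119) and by -0.22 ± 0.19 in knockout cells (adjusted p = 0.330), neither of which passed with all arrays at equal weight, and the difference was -0.55 ± 0.25 (adjusted p = 0.199). With LPS, Il6st was lower in knockout cells by -0.61 ± 0.19 (1.53-fold, adjusted p = 0.0245). Without LPS the genotypes differed by -0.07 ± 0.17 (adjusted p = 0.844). Without untreated wild type replicate 1, the highest of its group, the wild type response passed (0.45, adjusted p = 0.0318). The call with LPS was lost without knockout LPS replicate 2 (adjusted p = 0.0607) or 3 (0.125), without wild type LPS replicate 2 (0.0726) and with scaling by the median (-0.74, 0.0895). It was also lost with the replicate number as a block (-0.61, 0.0522).

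**Figure D3:**
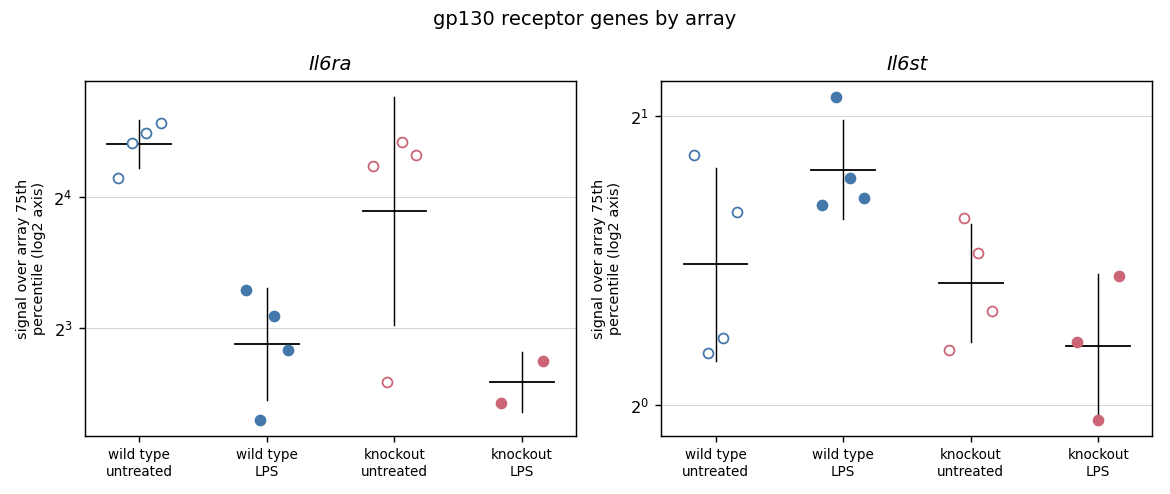
Relative signal of Il6ra and Il6st (y axis, log2 axis) on each array by group (x axis). Each circle is 1 array (open untreated, filled LPS), horizontal lines are means and vertical lines SDs of log2 values. Il6ra in untreated knockout cells is 18.8 to 21.4 on 3 arrays and 6.00 on the other one, and 1 knockout LPS spot is missing.

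By the size of the LPS response in wild type cells the order was Il6, Osm, Lif, Il6st, Clcf1 and Il6ra, from the largest rise to the fall. The intervals of Il6 (10.83 to 12.29), Osm (6.24 to 7.09) and Lif (1.10 to 3.64) did not overlap each other. Those of Il6st (-0.04 to 0.70) and Clcf1 (-1.40 to 0.54) overlapped, as did those of Clcf1 and Il6ra (-2.29 to -0.76).

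For each of the 6 genes, the genes most like it were taken by the root mean square difference of log2 values over the 15 arrays, each gene centred on its mean. The points share arrays and scaling. For Il6, whose own values had an SD of 5.89, these were Csf2 (0.656), Il1a (0.671) and Hdc (1.29), which encode granulocyte-macrophage colony-stimulating factor, interleukin-1 alpha and the enzyme that makes histamine. For Osm (SD 2.95) they were Ppef2 (0.357), Plet1 (0.360) and Glipr2 (0.390), with LPS responses of 6.64, 6.25 and 6.14 in wild type and 4.47, 3.89 and 3.18 in knockout cells. For Lif (SD 1.82) they were Cstdc5 (0.824), Gstt4 (0.896) and Dcn (0.934), so no gene came closer than 0.824. Il6ra (SD 0.878) was nearest to Creg2 (0.389), Zfp780b (0.391) and Spn (0.409), and Clcf1 (SD 0.756) to Cdc42bpg (0.449), Ptprm (0.467) and Defb37 (0.473). Il6st (SD 0.311) was nearest to Nfya (0.105), Skiv2l (0.111) and Brd1 (0.119).

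Beyond these genes, the gp130 pathway was followed in lists of its other ligands and receptors, its signal transducers, its inhibitors and its targets. The counts below stand beside shares of all genes of 34.7% higher and 25.1% lower with LPS in wild type cells, 31% and 27.9% in knockout cells, and 2.51% and 7.91% in the difference. Of 7 other family ligands, 6 were tested. LPS raised 4 in wild type cells and 3 in knockout cells, and the difference of the responses passed for 1. The median response of the list was 0.83 and 0.75, against 0.14 and 0.16 over all genes. Il27, the p28 subunit of IL-27, rose by 7.75 ± 0.17 and 6.48 ± 0.19 (limma adjusted p = 2.0e-13 and 3.6e-12), and the response was smaller in knockout cells by -1.27 ± 0.25 (adjusted p = 0.00630). Its relative signal with LPS was 37.5, 46.2, 34.4 and 32.3 in wild type and 21.2, 20.7 and 25.2 in knockout cells, so the groups did not overlap. Ebi3, the partner subunit of p28, rose by 1.39 ± 0.15 and 1.51 ± 0.16, and Il11 by 1.05 ± 0.20 and 0.85 ± 0.21.

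Of 6 other receptor genes, 5 were tested. LPS raised 2 and lowered 1 in wild type cells and raised 1 in knockout cells, and 0 passed in the difference by limma (1 at an unadjusted p under 0.05). Osmr, the receptor chain for oncostatin M, rose by 2.38 ± 0.23 and 2.07 ± 0.27 (limma adjusted p = 1.4e-06 and 2.2e-05). Its untreated values lay at or under the floor on every array measured but wild type replicate 1 (0.0887), and with LPS they were 0.201 to 0.388 and 0.170 to 0.195. The other receptors that passed in wild type cells were Lifr (0.33) and Il11ra1 (-0.92), named after their values were seen. The other Lifr probes gave 0.50 and -1.54 in wild type cells, so they disagree in direction.

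The 12 JAK-STAT transducers were all tested. LPS raised 9 and lowered 1 in wild type cells, and raised 8 and lowered 2 in knockout cells. The wild type count of 9 was 5 with quantile normalisation and 4 with scaling by the median. The response was lower in knockout cells for 2, Gab1 and Stat5a. Gab1, an adaptor that links gp130 to the MAP kinase pathway, rose by 0.88 ± 0.19 in wild type cells (limma adjusted p = 0.00100) and fell by 1.20 ± 0.20 in knockout cells (adjusted p = 0.000153), a difference of -2.08 ± 0.28 (adjusted p = 0.000348). With LPS its relative signal was 1.50, 1.82, 1.53 and 1.57 in wild type cells and 0.375, 0.229 and 0.400 in knockout cells, well apart. Stat5a rose by 3.18 ± 0.11 and 2.42 ± 0.12, a difference of -0.76 ± 0.16 (adjusted p = 0.0103).

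Stat3, the main transcription factor downstream of gp130, had an LPS response of 3.15 ± 0.24 in wild type cells and 2.0 ± 0.25 in the knockout (limma adjusted p = 4.3e-08 and 1.1e-05). Its relative signal with LPS was 44.9, 35.2, 34.5 and 36.1 in wild type and 20.6, 11.1 and 15.8 in knockout cells, with no overlap. Knockout minus wild type with LPS was -1.29 ± 0.25 (adjusted p = 0.00196). The difference of the responses was -1.15 ± 0.35 and did not pass (adjusted p = 0.0514), while a second Stat3 probe gave -1.50 (adjusted p = 0.00641 over all probes). Jak2, a kinase bound to gp130, rose by 2.72 ± 0.15 and 3.11 ± 0.16.

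Among 8 feedback inhibitors, LPS raised 6 in both genotypes and lowered 0 in wild type and 1 in knockout cells, and the response was lower in knockout cells for 3. Socs2, a suppressor of cytokine signalling, had a response of 2.65 ± 0.15 in wild type cells, against 0.47 ± 0.17 in the knockout, a difference of -2.19 ± 0.23 (limma adjusted p = 4.4e-05), and its other probes gave -2.15 and -1.89. Its relative signal without LPS was 0.279 to 0.325 for wild type against 0.471 to 0.817 for the knockout, and with LPS 1.64 to 2.15 and 0.704 to 0.879, so the order of the genotypes turned over. Cish differed by -0.99 ± 0.24 (adjusted p = 0.0192). It was higher in untreated knockout cells (0.75 ± 0.16, adjusted p = 0.00602), and its level with LPS did not pass (-0.24 ± 0.18, adjusted p = 0.344). Dusp1, a phosphatase of MAP kinases, differed by -0.81 ± 0.23 (adjusted p = 0.0457). Socs1 rose by 6.50 ± 0.19 and 6.96 ± 0.21 with no difference that passed (0.46 ± 0.28, adjusted p = 0.343).

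Of 12 STAT3 target genes, LPS raised 10 in wild type cells, and raised 11 and lowered 1 in knockout cells. The median response was 1.84 and 1.52. In 5 the response was lower in knockout cells, and in 0 it was higher, where 7.91% and 2.51% of all genes passed. Timp1, an inhibitor of matrix metalloproteinases, rose by 8.03 ± 0.14 and 6.38 ± 0.15, a difference of -1.66 ± 0.20 (limma adjusted p = 0.000186), and wild type cells with LPS gave 40.2 to 50.9, above the 12.7 to 14.7 of the knockout. Ccnd1, a cyclin of the G1 phase, fell in knockout cells by 1.35 ± 0.16 from a higher untreated level (6.59 to 7.59, against 1.98 to 2.41 in wild type), and the difference was -1.61 ± 0.21 (adjusted p = 0.000371). Il4ra, a receptor for interleukin-4, Nfil3, a leucine zipper factor, and Bcl2l1, which encodes a survival protein, differed by -1.23 ± 0.23, -1.16 ± 0.20 and -0.69 ± 0.18 (adjusted p = 0.00429, 0.00267 and 0.0273). In these 3 genes untreated knockout cells were higher than untreated wild type cells, by 0.70, 0.73 and 0.64. Second probes of Il4ra and Bcl2l1 gave 0.49 and 0.31 there and did not pass (limma adjusted p = 0.436 and 0.389 over all probes). In the difference of the responses these probes gave -2.08 and -1.23 (adjusted p = 0.0393 and 0.0337). The difference of the responses for Bcl2l1 turned to 0.68 in the deposited value table.

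Of 5 genes of receptor shedding, LPS raised 3 and lowered 1 in both genotypes, and 0 passed in the difference by limma (also 0 at an unadjusted p under 0.05). Rhbdf2, which brings the protease ADAM17 to the cell surface, rose by 2.25 ± 0.14 and 2.55 ± 0.17. Adam17 itself, the sheddase of the IL-6 receptor, rose by 0.62 ± 0.17 and 0.63 ± 0.18 (limma adjusted p = 0.00528 and 0.00852), calls that were lost with quantile normalisation (0.22 and 0.23) and whose wild type value turned to -1.25 in the deposited value table. Adam10, another protease, fell by 0.56 ± 0.12 and 0.61 ± 0.14. Rhbdf1 rose by 0.43 ± 0.15 and 0.76 ± 0.16 and was higher in knockout cells without LPS (1.15 ± 0.15) and with it (1.48 ± 0.16). Adam17 (0.73 ± 0.17 and 0.73 ± 0.18) and Adam10 (0.57 ± 0.13 and 0.52 ± 0.13) were also higher in knockout cells without and with LPS, though none of these calls passed with scaling by the median. A second Adam17 probe gave 0.39 and 0.59 between the genotypes without and with LPS (adjusted p = 0.191 and 0.0449 over all probes). Its LPS response was 0.32 in wild type and 0.52 in knockout cells (adjusted p = 0.164 and 0.0428). The wild type rise of Rhbdf1 was 0.10 with scaling by the median and did not pass.

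Of 11 genes that act on Il6 transcription or mRNA decay, LPS raised 11 in wild type and 9 in knockout cells, and the response was lower in knockout cells for 2. With quantile normalisation the counts raised were 10 and 9, and with scaling by the median 8 and 7. Without LPS, 0 of the 11 passed between the genotypes by limma (2 at an unadjusted p under 0.05), where 18.4% of all genes passed. Atf3, a repressor of Il6, rose by 1.40 ± 0.13 in wild type cells and did not pass in knockout cells (-0.05 ± 0.14), a difference of -1.45 ± 0.18 (limma adjusted p = 0.000256). Its relative signal with LPS was 61.1 to 81.6 and 18.8 to 25.8. Arid5a, an RNA-binding protein that stabilises Il6 mRNA, rose by 5.72 ± 0.12 and 4.34 ± 0.13, a difference of -1.38 ± 0.18 (adjusted p = 0.000348), and Zc3h12a, the nuclease that degrades it, by 3.55 ± 0.24 and 3.34 ± 0.26. Nfkbiz, a co-activator of Il6, rose by 3.24 ± 0.19 and 2.46 ± 0.21, and the difference of -0.78 ± 0.28 did not pass (adjusted p = 0.0972).

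Of the 65 genes tested here, the 6 and 59 of the lists, 14 (21.5%) had a response that passed as lower in knockout cells, Osm and 13 of the lists, and 0 as higher. Over all genes 7.91% passed as lower and 2.51% as higher. The 6 genes and the lists were chosen with earlier results of these data known. Setting these shares side by side is therefore not a test of the pathway. With scaling by the median 1.15% of all genes passed in this difference, and of the 14 only Osm, Gab1 and Socs2 did. The others kept their direction there.

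**Figure D4:**
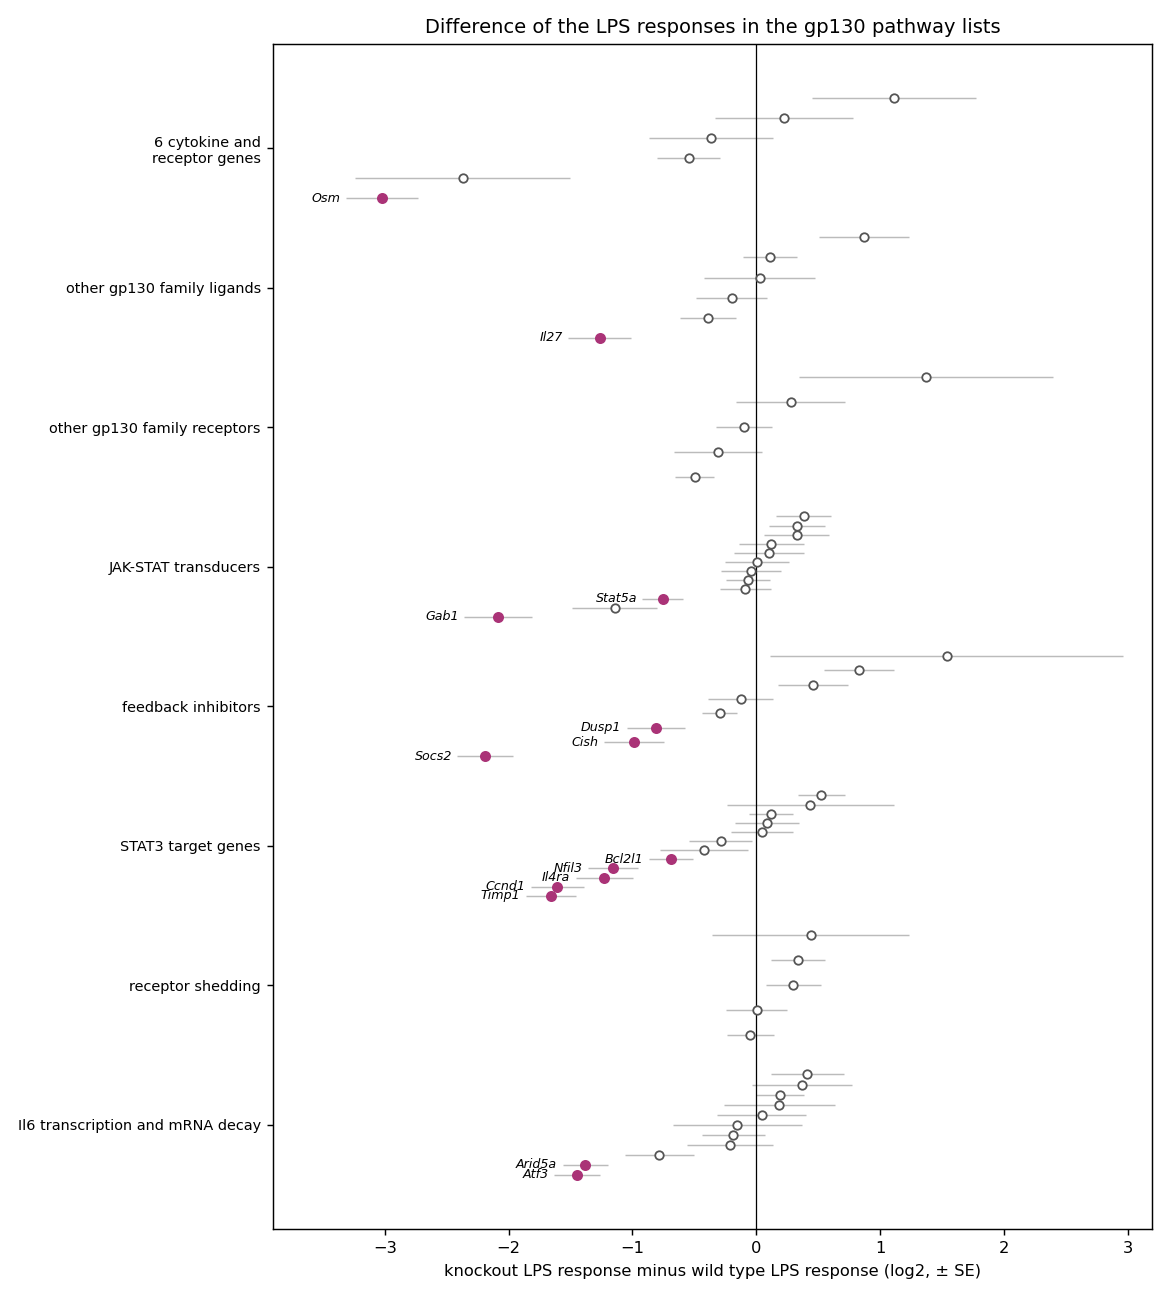
Difference of the LPS responses, knockout minus wild type, on the log2 scale (x axis) for the 6 genes and for each gene tested in the 7 pathway lists (y axis), with the SE as bars. Filled circles passed at an adjusted p under 0.05 and are named. The 14 genes that passed lie below 0, from -3.02 for Osm to -0.69 for Bcl2l1.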

How the data were processed

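RNA from 15 wells was measured on single-colour Agilent 8x60k arrays. The deposited intensity values are background-subtracted processed signals from Agilent Feature Extraction 10.7.3.1, per the file headers, with probes designed on mm9. The authors also deposited a table of log2 values, whose method is not given in the sources used here and which served as an alternative. It lists 3 of the 6 genes (Il6, Osm and Clcf1).

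Signals were scaled to the 75th percentile of their array, floored at 0.0442 (log2 -4.50) and put on the log2 scale. Control spots were left out, and 4827 spots marked as outliers were set to missing. Of 55681 probes, 28116 carry a RefSeq accession and 26582 matched 1 symbol. The filter kept probes that exceeded background in 3 or more arrays of any group (32558, of which 18379 named), and the brightest probe of a gene was used, which gave 14228 genes. limma 3.58.1 in R 4.3.3 was fitted on all 4 groups without a block, with Benjamini-Hochberg adjustment. Over the arrays the 75th percentile was 476 to 1481. The number of arrays limits the precision. The fit was also run on simulated data with known differences. Those were independent normal values with no floor and no missing spots, so they do not cover genes near background.

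Same-numbered arrays share an array column. Correlations of their deviations from the group means were 0.45, 0.24 and 0.14 between the LPS groups of the genotypes. Between the treatments these correlations ran from -0.54 to 0.56 for wild type and -0.00 to 0.33 for the knockout. Between the untreated groups they ran from -0.39 to -0.07. So few values cannot settle whether the numbers pair wells, and positive values in every pair were seen only between the LPS groups. The main fit used no block, and a replicate block was run as an alternative.

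The 6 genes and all lists were chosen with earlier results of these data known. Named from each list were up to 5 genes that passed in the difference of the responses, then, until 4 were named, those with the largest wild type response among genes that passed in both genotypes in 1 direction. The 3 genes most like each of the 6 were named too. Alternatives were other scalings and background corrections, the deposited table, other filters, floors and probe rules, array weights, a replicate block, only the groups compared, and leaving out arrays.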

Additional observations from a re-analysis of the deposited data

Results flagged for a closer look

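In groups of 4 arrays, 6 values stood apart from the other 3 by more than Dixon's 95% limit, on the log2 scale of relative signal. The rule was run on the 6 genes and the 25 named list genes, in every group with 4 values. These groups were untreated wild type, wild type LPS and untreated knockout cells. Chance flags about 1 in 20 such groups, so a number of flags near the one seen would arise by chance. A flag alone does not show that a value is aberrant. Clcf1 in untreated knockout replicate 3 was -0.153, against -1.969 to -1.73 on the other arrays of its group. Il6ra in untreated knockout replicate 2 was 2.585, against 4.231 to 4.42. Osmr in untreated wild type replicate 1 was -3.495, with the others at the floor of -4.5. As those others are tied, any value above the floor would have been flagged. Rhbdf2 in untreated wild type replicate 1 was 4.143, against 4.758 to 4.792. Adam17 in wild type LPS replicate 1 was 3.736, against 3.259 to 3.339, and Nfkbiz in wild type LPS replicate 2 was 3.593, against 3.234 to 3.273.

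The LPS response differed between the genotypes, by limma's test of the difference itself, for Osm (-3.025, knockout minus wild type, log2) and for 13 genes of the pathway lists. These were Socs2 (-2.188), Gab1 (-2.084), Timp1 (-1.657), Ccnd1 (-1.606), Atf3 (-1.449), Arid5a (-1.381), Il27 (-1.266), Il4ra (-1.227), Nfil3 (-1.156), Cish (-0.9866), Dusp1 (-0.8106), Stat5a (-0.7558) and Bcl2l1 (-0.6892). Slide, sex and genotype cannot be told apart in any of them. They are among 65 genes tested here, and over all genes 7.91% passed as lower in knockout cells. With scaling by the median only Osm, Gab1 and Socs2 passed, and Bcl2l1 turned sign in the deposited value table.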

How the results depend on the processing

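Over all alternatives, 787 values of the 6 genes kept their side of the threshold, of which 23 values not called in either fit had the other sign, 23 passed only in the alternative, 9 passed only in the original fit, and 0 changed sign as called values. Counts of the 6 genes moved as follows. A smaller knockout response (1) became 3 with array weights and 2 with normexp and quantile normalisation, without the 3 most deviating arrays, or without untreated knockout replicates 2 and 3 and untreated wild type replicate 1, a setting chosen after seeing the data. It ranged from 1 to 2 leaving out each array. A larger response (0) became 1 with array weights and without the 3 most deviating arrays. Lower without LPS (0) became 2 with array weights and 1 in both settings that leave out 3 arrays, and ranged from 0 to 2 leaving out each array. Lower with LPS (3) became 1 in the deposited table, which does not list Lif or Il6st. A fall in knockout cells (1) became 0 in that table, which does not list Il6ra, with only the groups compared and without the 3 most deviating arrays, and ranged from 0 to 1 leaving out each array. A fall in wild type cells (1) became 0 in that table. A rise in wild type cells (3) became 4 through Il6st with array weights (0.51), without untreated wild type replicate 1 (0.45) and in both settings that leave out 3 arrays (0.49 and 0.45), and 2 in the table. A rise in knockout cells (2) became 3 through Clcf1 with array weights (0.97), without untreated knockout replicate 3 (1.11) and in both settings that leave out 3 arrays (1.11 and 1.07). With the replicate block, lower with LPS became 2 through Il6st, and no other call of the 6 genes changed. Among the list genes 4 called values turned sign, all in the deposited table: Adam17 with LPS in wild type cells (-1.25), Bcl2l1 there (-0.47) and in the difference (0.68), and Socs1 between the genotypes with LPS (1.79). Except where stated, the cause was not tested. Fitting only the groups compared could not be run for the difference, which uses all 4 groups. Signals near background limit Lif, and Il6 with LPS lies near the bright end.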
